A study of Apis mellifera with 48 samples.

Results

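The drones of colony 3 were set against the drones of colony 1, 14 bees against 7, out of 48 honey bees (Apis mellifera) whose mushroom bodies were sequenced singly. The 21 drones were chosen from the labels alone, by sex and colony. The study asks what gene activity in the brain accompanies behaviour driven by reward, both instinctive (drone flights) and learned (worker foraging). Colony 3 drones comprised 8 active bees taken at 3 pm and 6 inactive bees taken at 9 am, and colony 1 drones comprised 2 active bees at 3 pm and 5 inactive bees at 9 am. Activity and clock time were 1 division of the bees, so time was a term in every fit that held bees of both times. Colony 2 gave 3 drones, and 4 workers of colony 3 and 10 workers of colony 1 served for comparison. The 3 colonies lived at 1 research site, each under its own queen. The queens had mated naturally and were not related to one another, and no bee carried a transgene or received a drug. The bees of a colony share a queen and a hive, so a p-value here measures the spread between bees of 1 colony each, and queen, hive and other differences between the colonies cannot be told apart.

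Drones hatch from unfertilised eggs. They have no father and carry a single set of chromosomes, a reshuffled sample of the pair that their queen carries, so brothers differ wherever the queen's copies differ, and drones of unrelated queens differ more widely. Workers hatch from fertilised eggs, carry a maternal and a paternal set, and in a colony of a naturally mated queen have several fathers. The mushroom bodies are paired centres of the insect brain that serve learning, memory and the joining of sensory signals. The gene identifiers of the files could not be matched to names (0 of 15314), so the dissected tissue could not be checked against its defining markers, and genes are given by identifier without a function, a position or a sequence.

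Each colony 3 drone had between 9.03 and 22.4 M reads in genes (median 13.7 M), and each colony 1 drone between 6.69 and 15.3 M (median 10.4 M). The share of entries that fell outside annotated genes was 28.6% ± 1.55 (SD, n = 14) in colony 3 and 26.5% ± 1.42 (SD, n = 7) in colony 1. The part of these library differences in the results was not tested, but a fit with every library thinned to 6.69 M reads is given below. Sequencing pools 1 to 6 each held drones of both colonies. Colony 1 drones 5 and 6 stood apart from the other libraries, with median distances to the other 20 drones of 1.03 and 1.06 on the log2 scale. The other 5 colony 1 drones had 0.823 to 0.877, and the highest value in colony 3 was 0.975, in drone 13. The bee codes of colony 3 carry a letter, W in 5 drones and Y in 9, whose meaning the labels do not give. Whole libraries were not set apart by it. The median distance was 0.839 in W with Y pairs (0.740 to 1.14). It was 0.816 in Y pairs (0.630 to 1.17) and 0.772 in W pairs (0.654 to 0.864). Some genes differed between the letters, as described further on.

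The first principal component of the 21 drones held 20.6% of the variance, and colony accounted for 0.0374% of it. The second held 12.1%, and colony accounted for 65.5% of that component, or 56.4% when added to time of day. Scores on it also had a correlation of -0.614 with the log of gene reads, which were fewer in colony 1 drones. The part of read number in this component was not tested. Second component scores ran from -31.8 to 7.52 in colony 3 drones and from 1.69 to 60.0 in colony 1 drones. The ranges overlapped through 1 bee of each colony, colony 3 drone 10 at 7.52 and colony 1 drone 2 at 1.69. The W drones ran from -12.1 to 7.52 and the Y drones from -31.8 to -4.75, so the W bees lay at the colony 1 end of the colony 3 range. Among pairs of bees taken at the same time, the median distance was 0.892 between the colonies (46 pairs, 0.727 to 1.36), 0.798 within colony 3 (43 pairs, 0.630 to 1.17) and 0.985 within colony 1 (11 pairs, 0.620 to 1.28). The 3 ranges overlapped over most of their length. Most of the 11 colony 1 pairs lay among the 5 bees of 9 am, which include the distant drones 5 and 6. Among pairs taken at different times the medians were 0.880 between the colonies, 0.861 within colony 3 and 0.853 within colony 1. The order of the medians thus depended on the pairs taken.

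**Figure D1:**
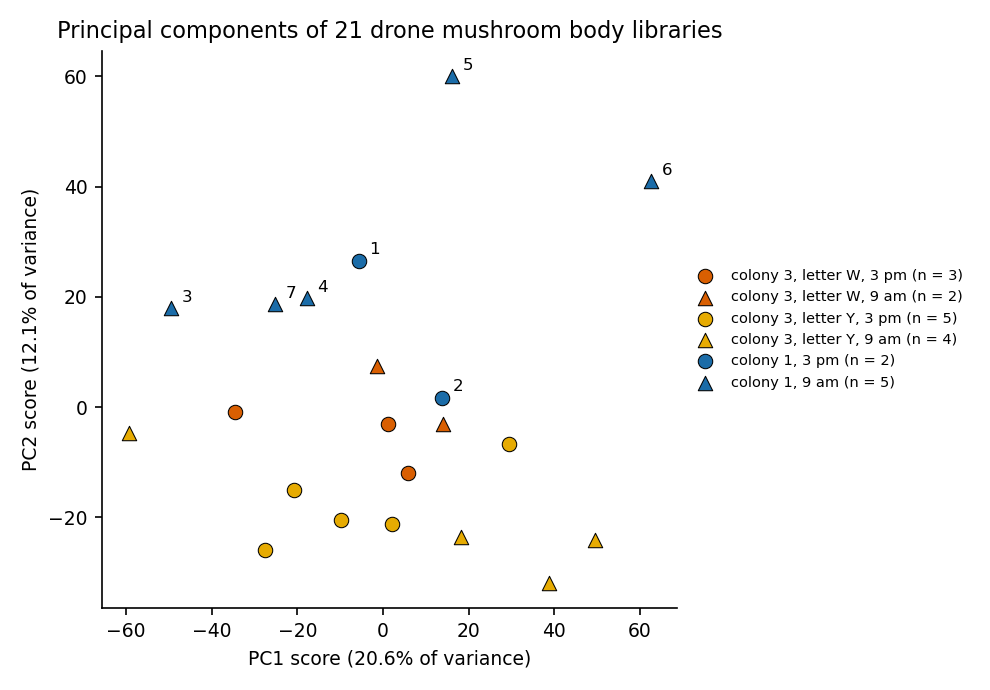
Scores of the 21 drone libraries on the first principal component (horizontal, 20.6% of the variance) and the second (vertical, 12.1%), 1 point per bee, with circles for 3 pm and triangles for 9 am; numbers mark the colony 1 drones. Colony 3 drones lie at or below 7.52 on the vertical axis and colony 1 drones at or above 1.69, with colony 1 drones 5 and 6 at the upper right.

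Genes of both directions differed between the colonies. Of 11638 genes tested, 153 (1.31%) passed an adjusted p of 0.05 in edgeR's quasi-likelihood test, 66 higher in colony 3 drones (0.567%) and 87 lower (0.748%). At an unadjusted p under 0.05 there were 1525 genes. The 66 higher genes had a median fold of 2.97, and 45 of them differed at least 2-fold, 23 at least 4-fold and 7 at least 10-fold. The 87 lower genes had a median fold of 1.61, and 33 of them differed at least 2-fold, 13 at least 4-fold and 6 at least 10-fold, while another 33 differed by less than 1.5-fold. In bulk tissue, fewer cells of a type and less RNA per cell cannot be told apart. The median log2 fold change of all genes tested was 0.02.

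The 2 directions also differed in how many reads their genes drew. CPM, the reads of a gene scaled to the total of gene reads of its library, is not corrected for gene length, so it says how well a gene was measured and does not rank genes by transcript number. When the genes tested were cut into 4 equal classes by mean CPM, the class with the most reads held 55 called genes, 9 higher and 46 lower in colony 3, with a median difference of 1.44-fold. The class with the fewest reads held 29, 16 higher and 13 lower, with a median of 5.10-fold. The classes between them held 45 and 24, with medians of 3.07-fold and 1.73-fold. A gene with few reads needs a larger difference to pass the threshold, so the sizes are not compared between the classes. Without colony 1 drones 5 and 6 the called genes were 47 higher and 48 lower.

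**Figure D2:**
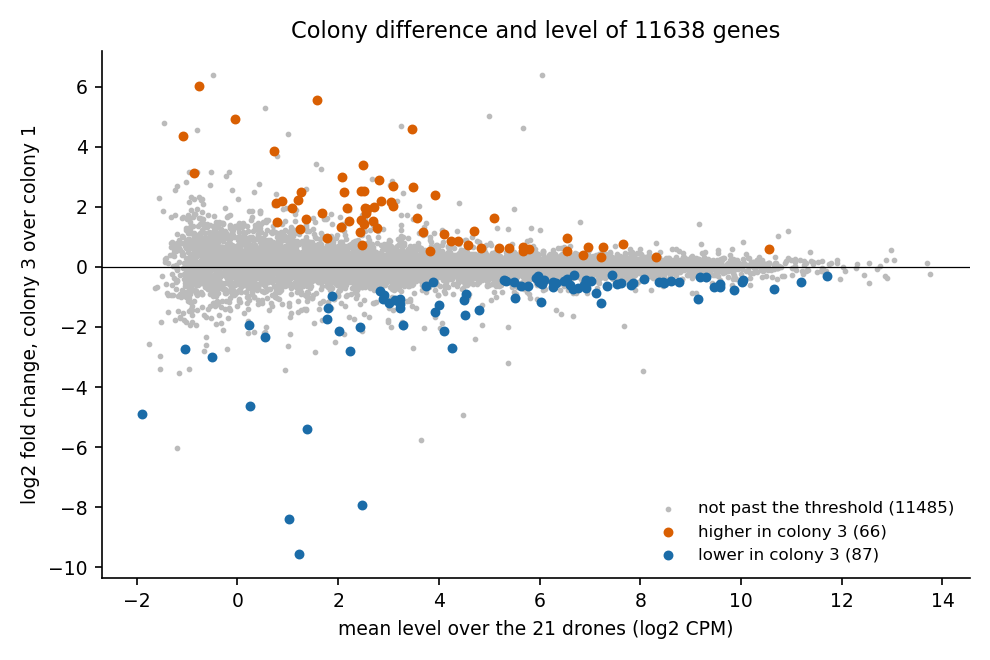
Log2 fold change of colony 3 over colony 1 drones (vertical) against the mean log2 CPM over the 21 drones (horizontal) for the 11638 genes tested, 1 point per gene, with coloured points past an edgeR adjusted p of 0.05. The 87 lower genes run far to the right at small differences, and the 66 higher genes lie mainly at the left.

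The counts depended on single colony 1 libraries. Without colony 1 drone 1 the count was 69, 63 of them among the 153, and leaving out any other single drone gave 104 to 195. Without the 2 distant libraries, colony 1 drones 5 and 6, it was 95, and 73 of these were among the 153. Thinned to equal depth, the libraries gave 167, and with the sequencing pool as a term 126.

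GB40791 had the lowest p among genes higher in colony 3. It was present at 4.65, 6.87 and 12.3 CPM (lowest, median and highest) in the 14 colony 3 drones, against 0.482, 0.609 and 1.38 CPM in the 7 colony 1 drones. The groups did not overlap, and every colony 3 drone lay well above every colony 1 drone. The log2 fold change was 3.40 ± 0.29 (SE, edgeR adjusted p = 2.87e-07). At both times of day the gap was of this size, 3.21 ± 0.37 at 9 am (edgeR adjusted p = 0.00289) and 3.74 ± 0.48 at 3 pm (edgeR adjusted p = 0.0109). Workers of both colonies had the level of colony 3 drones, 5.89 to 8.62 CPM in colony 3 workers and 4.11 to 9.08 CPM in colony 1 workers. Of the colony 2 drones, 2 had 10.2 and 8.31 CPM and the other had 0.316 CPM. The low level was thus seen in all 7 colony 1 drones and 1 colony 2 drone, and in no worker.

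GB45007 had the largest fold among genes higher in colony 3, once those whose mean log2 CPM was below 1 were set aside. Its values were 0.104, 2.29 and 10.9 CPM (lowest, median and highest) in colony 3 drones, against 0, 0.0676 and 0.252 CPM in colony 1 drones, of which 3 had no read. The colony ranges overlapped at the low end. The log2 fold change was 5.57 ± 1.05 (SE, edgeR adjusted p = 0.00783). The 5 W drones had 0.104 to 1.04 CPM and the 9 Y drones 1.18 to 10.9 CPM, a log2 difference (W minus Y) of -3.44 ± 0.65 (edgeR adjusted p = 0.0175). In limma-voom the colony difference did not pass (adjusted p = 0.196).

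GB45748 had the lowest p among genes lower in colony 3. It was nearly silent in colony 3 drones, at 0, 0.0290 and 0.226 CPM (lowest, median and highest), which is 12 reads over 14 bees with none in 7 of them. In colony 1 drones it had 0.126, 17.8 and 24.1 CPM. Colony 1 drone 7, with 1 read, was as low as colony 3, and the other 6 colony 1 drones had 14.7 to 24.1 CPM. The log2 fold change was -7.91 ± 0.59 (SE, edgeR adjusted p = 5.21e-08). Colony 2 drones resembled those of colony 3, at 0 to 0.236 CPM. Workers had 0.403 to 4.04 CPM in colony 3 and 0 to 5.15 CPM in colony 1, where 3 of 10 had no read, and all lay below the 6 high colony 1 drones.

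GB40038 had the largest fold among the genes lower in colony 3 that passed the same limit on CPM. None of the 14 colony 3 drones had a read. The colony 1 drones had 0, 7.53 and 14.6 CPM (lowest, median and highest), and the bee at 0 was again colony 1 drone 7. The other 6 had 3.23 to 14.6 CPM, and the groups met only at 0. Against a floor of 3 reads over the whole colony 3 group, its pooled CPM was at least 446-fold lower in colony 3 drones. This bound counts reads and leaves out the spread between bees. The test of the colony difference, which does not test that bound, passed (edgeR adjusted p = 0.00324). Colony 2 drones had 2.36 to 6.01 CPM. Among workers, 3 of 4 in colony 3 and 7 of 10 in colony 1 had no read, with highest values of 0.504 CPM in colony 3 and 3.18 CPM in colony 1.

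**Figure D3:**
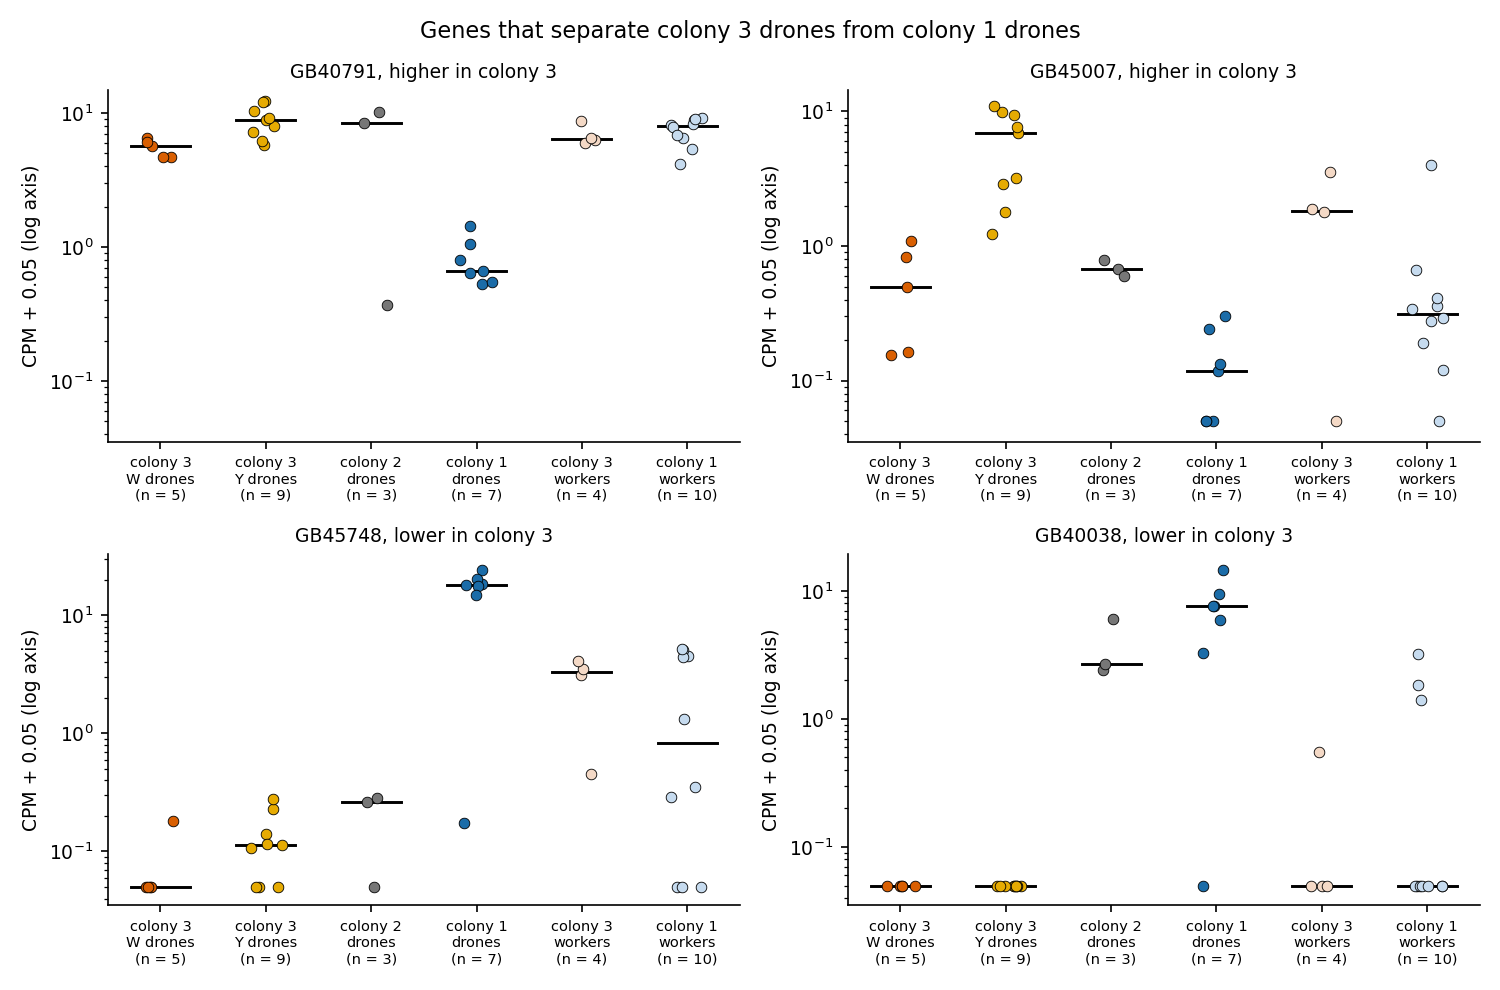
CPM plus 0.05 on a log axis for 4 genes, 1 point per bee, with black bars at the group medians; points at 0.05 have no read. In colony 1 drones GB40791 reaches at most 1.38 CPM and GB45748 lies at 14.7 to 24.1 CPM in all but 1 bee. Colony 3 drones lie at the opposite end of the panels of GB40791 and GB45748. In GB45007 the colony ranges overlap at the low end.

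Complete separation of the colonies was rare. In 18 genes of 11638 (0.155%) every colony 3 drone lay beyond every colony 1 drone, 9 above and 9 below. Of the 153 genes called, 16 were of this kind (10.5%). No gene was below 0.5 CPM in every drone of 1 colony and at 5 CPM or more in every drone of the other, and relaxing these limits to 1 and 4 CPM gave 0 as well. The 40 genes with the lowest p, 13 higher and 27 lower, were centred on their means and laid out by bee. In several of the genes with wide differences, single colony 1 bees had the colony 3 level, as colony 1 drone 7 did in GB45748 and GB40038. Within the colonies, the median SD of a gene over bees, taken about the mean of their time, was 0.301 on the log2 scale in colony 3 and 0.346 in colony 1 (9581 genes).

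**Figure D4:**
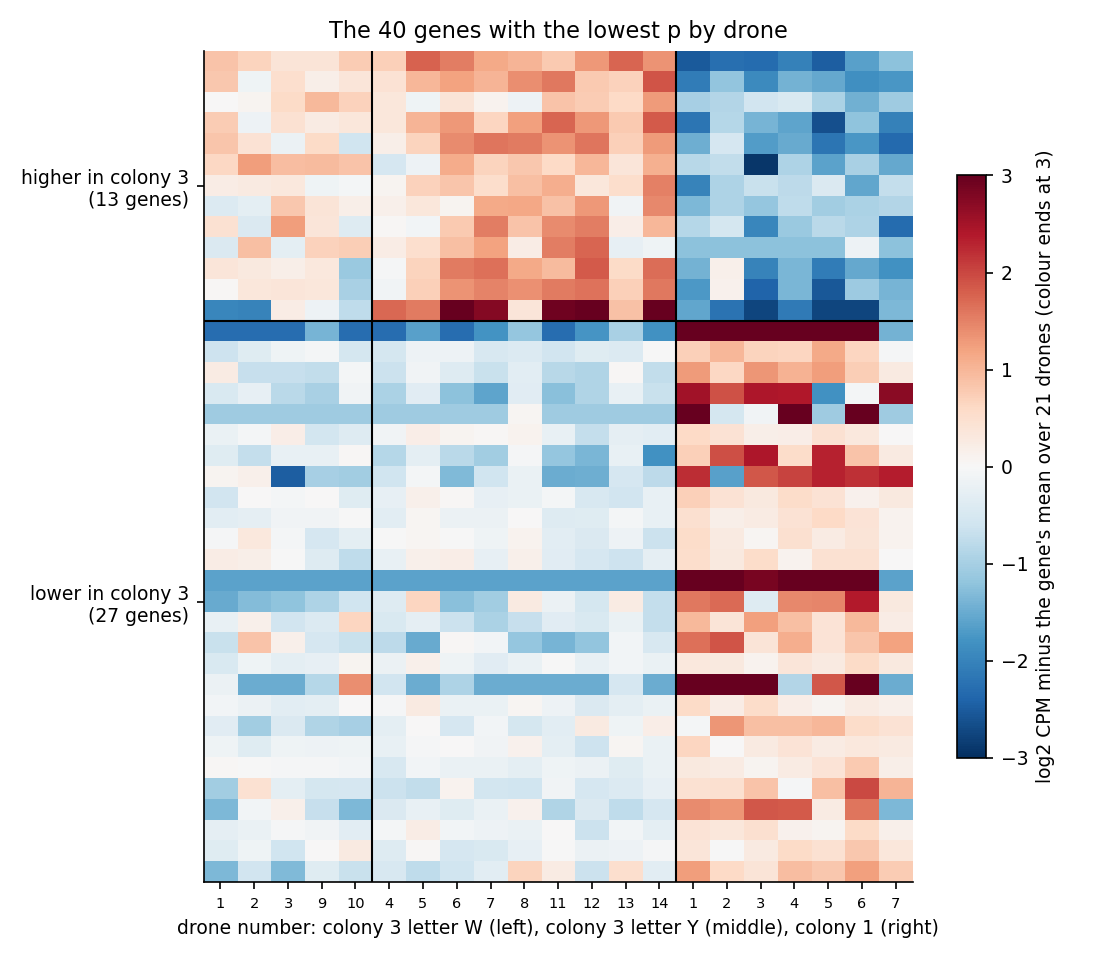
Log2 CPM minus the gene's mean over the 21 drones, with the colour scale ending at 3, for the 40 genes with the lowest p (rows, 13 higher and 27 lower in colony 3) in each drone (columns, colony 3 W, colony 3 Y and colony 1 from left to right). Blocks of colour change at the line between the colonies, and single cells within colony 1 have the colour of colony 3.

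The colony difference was then taken at each time. At 9 am, with 6 colony 3 and 5 colony 1 drones, 40 of 10686 genes passed (0.374%). At 3 pm, with 8 and 2 drones, 9 of 11327 passed (0.0795%). No bee was shared between the times. Of the 40 genes called at 9 am, 37 had the same sign at 3 pm (92.5%), with a median log2 fold change of 0.95 in their 9 am direction, and 2 were called there. Among genes not called at 9 am, 53.4% had the same sign. The colony difference at 3 pm minus that at 9 am passed in 0 of 11638 genes (0%) in edgeR, where 572 had an unadjusted p under 0.05 and the lowest adjusted p was 0.359. DESeq2 called 8 genes and limma-voom 0. Without colony 1 drone 2, which leaves 1 colony 1 bee at 3 pm that is assumed to vary like the others, the edgeR count was 13, and without colony 1 drone 1 it was 1.

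Within colony 3, genes also differed between drones of the 2 code letters. This comparison was added after the libraries had been seen. The 5 W drones comprised 3 bees at 3 pm and 2 at 9 am, and the 9 Y drones comprised 5 and 4. Of 11550 genes tested, 110 passed between W and Y (0.952%), 60 higher and 50 lower in W drones, and 85 of them differed at least 2-fold and 26 at least 10-fold. In 103 genes (0.892%) the letters did not overlap, and 71 of these were among the 110. At 3 pm 29 of 10989 genes passed (0.264%), and at 9 am 5 of 11305 (0.0442%). All 29 genes called at 3 pm had the same sign at 9 am, with a median of 2.81 on the log2 scale in their 3 pm direction. Of the genes not called at 3 pm, 58.8% had the same sign. The count of 110 was 48 without colony 3 drone 9, 69 without drone 6 and 71 without drone 10.

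The letter lay almost along the sequencing pools. Pools 1, 3 and 4 held only Y drones of colony 3, pools 5 and 6 only W drones, and pool 2 held 1 of each. With the pool as a term, 6 genes passed between W and Y, 4 of them among the 110. Letter and pool can therefore hardly be told apart among the drones of colony 3. The 7 colony 1 drones, which bear no letter, came from all 6 pools, and their values are given beside those of the single genes.

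GB55736 had the lowest p among genes higher in W drones. It was present at 92.1, 136 and 155 CPM (lowest, median and highest) in W drones, against 3.44, 4.99 and 7.75 CPM in Y drones. The letters lay wholly apart, with a log2 difference of 4.77 ± 0.16 (SE, edgeR adjusted p = 4.04e-11). Within pool 2 the W drone had 92.1 CPM and the Y drone 5.85 CPM. Colony 1 drones had 115 to 169 CPM in all pools. In the colony 3 workers, whose codes bear the same letters, the W worker (pool 1) had 118 CPM. The 3 Y workers (pools 2, 4 and 5) had 5.51 to 6.61 CPM. Letter and pool were not tested in workers. In colony 1 workers 6 bees had 75.1 to 135 CPM and the other 4 had 4.67 to 7.54 CPM. The comparison of all colony 3 with all colony 1 drones gave -1.43 ± 0.80 (edgeR adjusted p = 0.482).

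GB46318 had the lowest p among genes lower in W drones. It had 0.150, 0.415 and 1.12 CPM (lowest, median and highest) in W drones, against 306, 371 and 521 CPM in Y drones. The log2 difference was -9.36 ± 0.30 (SE, edgeR adjusted p = 4.04e-11). In pool 2 the W drone had 1.12 CPM and the Y drone 348 CPM. Of the colony 1 drones, 6 had 425 to 512 CPM and drone 6 had 2.18 CPM. Workers of colony 3 lay between, at 103 CPM in the W bee and 96.4 to 156 CPM in the Y bees, and workers of colony 1 had 101 to 236 CPM. A level near 0 was thus found in 5 colony 3 drones and 1 colony 1 drone, and in no worker of these colonies.

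Both genes of largest fold between the letters were near 0 on 1 side. GB48213 was present at 4.87 to 8.61 CPM in W drones (481 reads in 5 bees), against 1 read in 9 Y drones (edgeR adjusted p = 2.82e-08). The ratio of pooled CPM was 913, with an exact 95% counting interval of 163 to 36145 that leaves out the spread between bees. Colony 1 drones had 0 to 7.70 CPM, with no read in the 2 bees of 3 pm. GB49219 had 0 to 0.374 CPM in W drones, against 136 to 200 CPM in 8 Y drones and no read in Y drone 12. The log2 difference was -9.79 ± 1.27 (edgeR adjusted p = 0.000828), and it did not pass in limma-voom (adjusted p = 0.852) or at 9 am alone (edgeR adjusted p = 0.701). Its high level appeared in no colony 1 drone, where the highest value was 5.70 CPM, and in no colony 3 worker, where it was 0.577 CPM. In colony 1 workers 5 of 10 had 77.2 to 97.6 CPM and the other 5 at most 0.204 CPM. With the pool as a term neither GB48213 (edgeR adjusted p = 0.261) nor GB49219 (edgeR adjusted p = 0.297) passed, while GB55736 (edgeR adjusted p = 0.000231) and GB46318 (edgeR adjusted p = 3.89e-05) did.

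**Figure D5:**
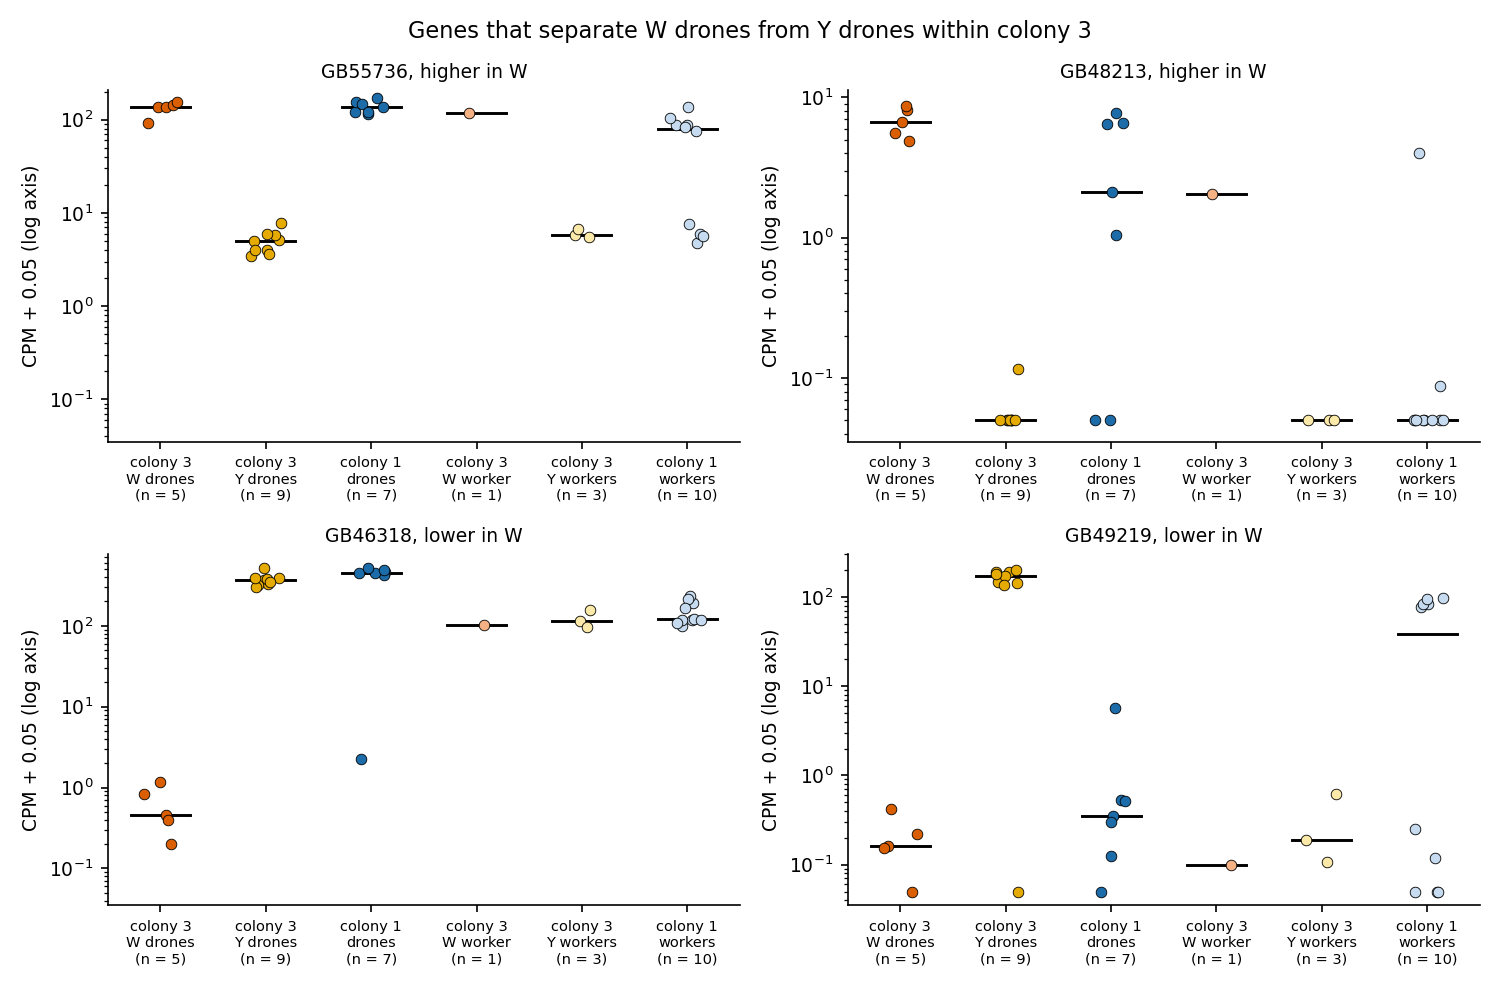
CPM plus 0.05 on a log axis for 4 genes, 1 point per bee, with black bars at the group medians; points at 0.05 have no read. W drones lie apart from Y drones in each panel save for Y drone 12 in GB49219, and GB46318 in workers lies between the 2 drone levels.

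Each letter was also set against colony 1. The Y drones gave 168 of 11482 genes (1.46%), 83 higher and 85 lower than in colony 1. The W drones gave 29 of 11235 genes (0.258%), 16 higher and 13 lower. These 2 comparisons share the 7 colony 1 drones, and W has fewer bees, so their counts are not compared. Of the 153 genes called between the colonies, the 66 higher ones had a median log2 fold change of 1.18 in W drones (62 measured) and 1.67 in Y drones, and the 87 lower ones had -0.69 and -0.70. The 153 were called with these same bees, more of them Y than W, and 62 and 66 are different sets. These medians are therefore not compared between the letters. GB40791 gave 2.95 ± 0.32 in W drones (edgeR adjusted p = 0.00133) and 3.60 ± 0.28 in Y drones (edgeR adjusted p = 7.35e-07). GB55736 gave -0.02 ± 0.14 in W drones (edgeR adjusted p = 0.999) and -4.77 ± 0.16 in Y drones (edgeR adjusted p = 3.96e-12).

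Genes that were near 0 in some brothers and clearly present in others were counted directly. With at least 3 bees below 0.5 CPM and at least 3 at 5 CPM or more, 35 of 15314 genes were of this kind among the 14 colony 3 drones and 1 among the 7 colony 1 drones. The counts depend on the number of bees, and each colony of 10 workers, colony 1 and colony 2, gave 13. Of the 35 genes, 7 were divided by the letter with no overlap, 3 with W above Y and 4 with W below Y, and 11 passed the letter test. Over all genes in the letter test, 0.892% did not overlap and 0.952% passed. The 35 were picked for a wide split among these same 14 bees, so larger shares are partly built in. The highest value of a colony 3 drone in these genes ran from 5.67 to 521 CPM. In 16 of the 35, colony 1 drones also held bees on both sides, below 0.5 CPM and at 5 CPM or more. Of the 35, 1 was among the 153 genes called between the colonies, which are 1.31% of the genes tested. With limits of 1 and 4 CPM the counts were 127 in colony 3 and 13 in colony 1.

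The same 2 colonies were compared in workers, which share no library with the drones. Of 11555 genes, 21 passed between 4 colony 3 and 10 colony 1 workers (0.182%), 11 higher and 10 lower, and 1472 had an unadjusted p under 0.05. This count was unstable. It was 200 without colony 3 worker 1, 2 without worker 2 and 0 without worker 4, where 979 genes had an unadjusted p under 0.05. Of the colony 1 workers, leaving out number 4 gave 58 and number 8 gave 44, while 2, 5, 6, 9 and 10 gave 9, 9, 6, 10 and 12. DESeq2 called 252 genes.

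The genes higher in colony 3 drones had no common sign in workers. Of these 66, 65 were measured in workers and 36 had the same sign (55.4%), with a median log2 fold change of 0.04 and none called. Of the 87 lower genes, 85 were measured and 72 had the same sign (84.7%), with a median of -0.25 and 2 called. Among genes not called in drones 50.5% had the same sign in workers. Over both directions the share was 108 of 150 (72.0%).

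The 2 genes called in both sexes were GB52446 and GB54081, which were named after their values were seen. GB52446 had 4.19, 8.04 and 18.9 CPM (lowest, median and highest) in colony 3 drones, against 4.15, 21.5 and 57.9 CPM in colony 1 drones, which overlapped. Its log2 fold change was -1.49 ± 0.36 in drones (edgeR adjusted p = 0.0382). In workers it had 1.20 to 4.17 CPM in colony 3 and 7.56 to 18.4 CPM in colony 1, without overlap, and a log2 fold change of -2.08 ± 0.33 (edgeR adjusted p = 0.0199). GB54081 had 1 read in the 14 colony 3 drones and 27 reads in 3 of the 7 colony 1 drones, with none in the other 4 (edgeR adjusted p = 0.0148). The colony 3 workers had 1 read in 4 bees, while all 10 colony 1 workers had reads, 0.145 to 1.72 CPM (edgeR adjusted p = 0.038). The ratio of pooled CPM, colony 1 over colony 3, was 72.6 in drones and 44.5 in workers, with exact 95% counting intervals of 12.0 to 2973 and 7.80 to 1774. These intervals count reads and leave out the spread between bees. Of the 27 drone reads, 15 came from colony 1 drone 7 and 11 from colony 1 drone 1.

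Both drone calls rested on single libraries and settings, though the sign held in each fit that measured the gene. GB52446 did not pass in drones in 19 of 35 alternatives, 13 of them with 1 library left out (colony 1 drones 1, 2, 4, 5 and 6 and colony 3 drones 3, 6, 7, 9, 10, 11, 13 and 14). Without colony 1 drones 5 and 6 its log2 fold change was -0.91 (edgeR adjusted p = 0.207), and with either letter or either time alone its edgeR adjusted p was 0.123 to 0.372. GB54081 did not pass in drones in 7 of 31 alternatives, among them DESeq2 (adjusted p = 0.25), Y drones only (edgeR adjusted p = 0.0866), W drones only (edgeR adjusted p = 0.571), without colony 1 drone 1 (edgeR adjusted p = 0.308) and without colony 3 drone 13 (edgeR adjusted p = 0.134). GB54081 was not measured in drones without colony 1 drone 7, the bee with the most of its drone reads. After thinning and at either time alone it was not measured either, so these settings are not among the 31. In workers GB52446 did not pass without colony 3 worker 2 (edgeR adjusted p = 0.164) or 4 (edgeR adjusted p = 0.0737). GB54081 did not pass in workers in 9 of 20 alternatives, 7 of them with 1 library left out (colony 3 workers 2, 3 and 4 and colony 1 workers 2, 5, 6 and 10).

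The difference between the sexes was tested directly. The colony effect in drones minus that in workers passed in 14 of 11966 genes (0.117%), 8 positive and 6 negative, with sizes of 0.64 to 11.15 on the log2 scale. Of these 14, 9 were among the 153 drone genes (1.31% of genes tested in drones). Among the 21 worker genes (0.182% of genes tested in workers) there was 1. In 11 of the 13 measured in both sexes the signs were opposite. The median size of the colony effect was 1.48 in drones (14 genes) and 0.37 in workers (13 genes). The test picks genes whose drone and worker values lie far apart in these same bees. The opposite signs, unequal sizes and shared drone genes follow in part from that choice and are not read as results. GB40791 led with 3.52 ± 0.38 (SE, edgeR adjusted p = 9.53e-07), from 3.40 in drones and -0.11 in workers. GB45748 followed with -8.28 ± 1.18 (SE, edgeR adjusted p = 0.000297), from -7.91 in drones and 0.36 in workers. GB45007 (edgeR adjusted p = 0.351) and GB40038 (edgeR adjusted p = 0.288) did not pass. The count of 14 was 9 without colony 1 drone 1, 38 without colony 1 drone 2, 24 without colony 3 drone 1, 29 without colony 1 worker 4, 6 without colony 3 worker 2 and 7 without colony 3 worker 4.

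The 3 drones of colony 2 gave a further view of how far colonies differ. Against colony 1 drones, 11 of 12012 genes passed (0.0916%), 6 higher and 5 lower in colony 2. The count was 5 without colony 2 drone 2 and 1 without drone 3. Both comparisons use the same colony 1 drones, so the values are only set side by side. Of the 66 genes higher in colony 3 than in colony 1, the colony 2 mean of log2(CPM + 1) lay nearer colony 3 in 33 and nearer colony 1 in 33. Of the 87 lower genes it lay nearer colony 3 in 58 and nearer colony 1 in 29. All these genes were chosen for a gap between colonies 3 and 1 in the same drones. Genes not called were not placed in this way, so the counts are not read as a likeness of colony 2 to either. GB40791 and GB45748 gave 3.15 ± 0.52 and -6.85 ± 1.10 in colony 2 over colony 1 (edgeR adjusted p = 0.015 for both), against 3.40 and -7.91 in colony 3 over colony 1.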

How the data were processed

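The authors deposited 1 file of raw counts per bee, with a count of reads for each gene. The submitters' processing notes name HTSeq 0.5.4, SAMtools, TopHat2 2.0.10, Trimmomatic 0.30, CASAVA 1.8.2 and edgeR 3.4.2, without a role or order. The files' names give assembly Amel 4.5 and gene set 3.2. The library kit kept strand, per the labels' protocols, but the strand setting of the counting is not given in the sources used here, so overlapping or near-identical genes are uncertain. The 5 summary rows were left out.

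Genes with few reads were removed with filterByExpr by colony and time, libraries were scaled by TMM, and colony was tested with time as a covariate in edgeR 4.0.16 (R 4.3.3), two-sided, with Benjamini-Hochberg adjustment over all genes tested and a threshold of 0.05. The standard error is the log2 fold change divided by the root of F. CPM shown are scaled over all 48 libraries, and principal components used a prior count of 2. Functions were tested on simulated counts. No 2 libraries were identical (highest correlation 0.975). The members and lists were chosen with earlier results of these data known. Without names, the rule for single genes took, per direction, the lowest p and the largest fold among called genes whose mean log2 CPM was 1 or more, and the 11 gene lists, markers of other tissues among them, matched no identifier and were not tested. Alternatives were size factors, no filter, DESeq2 1.42.0, limma-voom (limma 3.58.1), robust estimation, thinning, a pool term, other sets of libraries, and each library left out.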

Additional observations from a re-analysis of the deposited data

Results flagged for a closer look

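Groups of 4 to 10 bees were searched for a bee set apart by a wide gap (Dixon's criterion), for the genes given by identifier with a highest value of at least 1 CPM and for library measures. A bee was set apart in 10 of 50 groups. The criterion's chance rate of about 1 in 20 groups holds only for values with a normal spread. CPM values of which several have no read lack such a spread. The count of 10 is therefore not read as an excess over chance. Some of the genes searched were chosen for their differences between the same bees.

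In colony 1 drones, GB45748 was at 0.126 CPM in drone 7 with the next bee at 14.7 CPM. GB46318 was at 2.18 CPM in colony 1 drone 6, with the next bee at 425 CPM. GB49219 was at 5.70 CPM in colony 1 drone 4, with the next bee at 0.482 CPM. In Y drones of colony 3, GB46318 reached 521 CPM in drone 5 with the next at 390 CPM, and GB49219 was at 0 CPM in drone 12 with the next at 136 CPM. The 20 genes with the most reads took 12.1% of the gene reads in Y drone 4, with the next bee at 12.99%. In colony 3 workers, worker 3, the bee with the letter W, had 2.02 CPM of GB48213 against 0 in the others, and 118 CPM of GB55736 with the next at 6.61 CPM. In colony 1 workers, GB45007 was at 3.98 CPM in worker 4 with the next at 0.612 CPM, and GB48213 at 3.94 CPM in worker 7 with the next at 0.0382 CPM.

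The colony effect differed between drones and workers in 14 genes by the test of the difference itself (edgeR adjusted p below 0.05), among them GB40791 with 3.52 and GB45748 with -8.28 on the log2 scale.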

How the results depend on the processing

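The count of 153 genes between colony 3 and colony 1 drones was 374 in DESeq2, 365 when all 48 libraries shared the fit, 40 at 9 am alone, 9 at 3 pm alone (2 higher and 7 lower), 29 with W drones only, 95 without colony 1 drones 5 and 6, and 69 to 195 with 1 library left out. Size factors, no filter, robust estimation, limma-voom, thinning, the pool term and 24 drones gave 126 to 182. The count of 0 for the difference between the times was 8 in DESeq2 and 0 to 13 with 1 library left out. For workers, 21 became 252 in DESeq2 (19.4% of them higher, against 52.4%) and 0 to 200 with 1 library left out. For drones minus workers, 14 became 95 in DESeq2 (75.8% positive, against 57.1%), 8 after thinning and 6 to 38 with 1 library left out. For colony 2 against colony 1, 11 became 1 to 9. For W against Y, 110 became 289 in DESeq2 (37.7% higher, against 54.5%), 6 with the pool term, 5 at 9 am, 29 at 3 pm and 48 to 145. The cause of these shifts was not tested, beyond the fewer libraries that some settings hold. Genes near 0 in some brothers numbered 127 in place of 35 in colony 3 and 13 in place of 1 in colony 1 with limits of 1 and 4 CPM. Genes without overlap numbered 22 in place of 18 on plain totals.

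None of the 10 genes given by identifier changed sign in the comparison it was named for, under any alternative that measured it. There GB40791, GB45748, GB55736 and GB46318 passed under each such alternative, and GB40791 and GB45748 did so too for drones minus workers. GB52446 did not pass in 19 of 35 alternatives in drones and 2 of 21 in workers, and GB54081 in 7 of 31 and 9 of 20. GB45007 did not pass in limma-voom (adjusted p = 0.196) or at 3 pm alone (adjusted p = 0.633), GB40038 not with W drones only (adjusted p = 0.0553), GB48213 not with the pool term or at 9 am alone (adjusted p = 0.0677), and GB49219 not in limma-voom (adjusted p = 0.852), with the pool term or at 9 am alone (adjusted p = 0.701).

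Depth of 6.69 to 22.4 M reads limits genes of few reads. No paired analysis was possible because the replicate numbers follow the order of deposit and pair no bees across colonies.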

Other observations

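Genes called between the colonies were often next to each other in the numbered list of identifiers. Of the 153 genes, 26 (17.0%) had a directly neighbouring identifier called in the same direction, in 7 runs of 2 and 3 runs of 3 or more, the longest of 5 genes. Of the 11485 tested genes that were not called, 1.86% had a called neighbour. No shared direction was required there, so these shares are not the same measure. The list order was not tied to genome positions here, and neighbours that share reads were not told apart.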
